A study of Homo sapiens with 10 samples.

Results

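The genes described here are 10 components of the synaptic vesicle and of the SNARE membrane-fusion machinery, SYP, SYN1, SV2A, SYT1, SYT11, CPLX1, STX1A, SNAP25, SNAP23 and VAMP2. They were taken by symbol from a table of 58735 genes, in which each symbol occurred once. The genes were selected on their ADC against PBS values in these same libraries, so those values are given as a description without a test. Poly(A) RNA was sequenced from CH157-MN cells, a line established from a human meningioma. The ADC group (5 libraries) was harvested 3 days after exposure to 100 nM of a conjugate in which the tubulin inhibitor MMAF is carried by a humanised antibody to the somatostatin receptor SSTR2. The PBS group (5 libraries) received phosphate-buffered saline, and its day of harvest is not given in the labels. All 10 libraries come from the same cell line, and the labels do not say that they were separate cultures, so the spread behind each p-value is that among these samples and may be purely technical.

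Neurotransmitter vesicles are held in clusters, docked at the plasma membrane and fused with it when calcium enters the nerve ending. Fusion is driven by a bundle of helices formed by syntaxin 1 (STX1A) and SNAP25 on the plasma membrane and VAMP2 on the vesicle, the proteins that tetanus and botulinum toxins cleave. Synaptotagmin 1 (SYT1) senses calcium, complexin 1 (CPLX1) holds and primes the bundle, and synaptophysin (SYP), SV2A and synapsin I (SYN1) belong to the vesicle itself. SNAP23 takes the place of SNAP25 in most other tissues. Outside neurons and neuroendocrine cells the repressor REST, which binds the RE1 element, keeps many such genes low.

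Total counts ranged from 28638057 to 36463724 in ADC libraries and from 28262162 to 34473795 in PBS libraries. Of 14504 genes tested, 20.8% passed an adjusted p of 0.05 (edgeR quasi-likelihood test), 10.8% higher and 10.04% lower after ADC. With library size alone as the scale, 63.3% of the calls were higher instead of 51.8%, and the median log2 fold change of all genes was 0.02 instead of -0.00. Of the markers of meningioma and arachnoid cells, the filament gene VIM was abundant (3535 ± 67 CPM in ADC and 3395 ± 123 CPM in PBS libraries, SD, n = 5 each, CPM being counts scaled by library size and TMM factor), whereas PGR had 0 counts, PTGDS at most 1 and DSP at most 4 in any library. MUC1 was read at low counts, 11 to 33 per ADC library and 2 to 19 per PBS library. It was not called (log2 fold change 1.02, SE 0.46, adjusted p = 0.12). SSTR2 itself averaged 0.429 ± 0.103 CPM in ADC and 0.297 ± 0.263 CPM in PBS libraries. These rest on 10 to 20 counts per ADC library and 3 to 22 per PBS library. SSTR2 was not called (log2 fold change 0.54, SE 0.50). It met the filter on low counts in 4 ADC libraries and 1 PBS library, so no p is given. Of 25 neuronal and neuroendocrine markers 8 had 0 counts in every library, among them RBFOX3, DCX, ELAVL4 and INSM1.

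Promoter windows from RefSeq (GRCh38.p14, 250 bases before to 50 after a transcript start) matched 8 of the 10 genes (not SNAP25 or CPLX1, which were not searched), and those of the following 3 are shown. SYN1 is the gene with an RE1 match among those 8, SYP has the largest ratio between the groups, and SYT11 is the most abundant synaptotagmin. The letters run 5′ to 3′ along the gene, and capitals mark matches to 4 motifs searched on both strands.
SYN1: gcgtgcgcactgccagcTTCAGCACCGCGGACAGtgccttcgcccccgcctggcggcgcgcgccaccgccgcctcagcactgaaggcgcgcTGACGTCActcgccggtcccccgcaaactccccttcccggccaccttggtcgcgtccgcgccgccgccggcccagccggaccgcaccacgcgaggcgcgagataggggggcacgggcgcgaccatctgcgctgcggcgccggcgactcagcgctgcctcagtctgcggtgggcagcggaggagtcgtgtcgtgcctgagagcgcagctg
SYP: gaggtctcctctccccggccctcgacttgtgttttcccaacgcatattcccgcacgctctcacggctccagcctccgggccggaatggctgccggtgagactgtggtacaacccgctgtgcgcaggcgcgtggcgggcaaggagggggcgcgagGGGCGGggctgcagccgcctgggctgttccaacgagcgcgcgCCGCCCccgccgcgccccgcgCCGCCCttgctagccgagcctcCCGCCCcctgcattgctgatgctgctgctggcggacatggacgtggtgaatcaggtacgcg
SYT11: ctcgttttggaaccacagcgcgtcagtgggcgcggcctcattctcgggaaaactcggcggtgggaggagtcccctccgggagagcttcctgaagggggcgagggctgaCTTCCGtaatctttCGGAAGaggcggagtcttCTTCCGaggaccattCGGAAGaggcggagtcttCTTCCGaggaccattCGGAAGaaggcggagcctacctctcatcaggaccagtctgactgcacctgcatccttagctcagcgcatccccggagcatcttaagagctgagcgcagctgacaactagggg

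The SYN1 window (chrX:47619808-47620107, minus strand) holds TTCAGCACCGCGGACAG, which begins at -233 from the start site and matches the RE1 core, searched as these letters with any base at positions 10 and 11. This motif occurs in 5 of 35116 windows, or 0.0142%. A search for so fixed a string within these windows cannot show that the other genes lack an RE1 element. The same window holds the cyclic AMP response element TGACGTCA at -159, found in 1.85% of windows. The SYP window (chrX:49200144-49200443, minus strand) holds 4 GC boxes (GGGCGG or its complement), a motif found in 45.0% of windows. The SYT11 window (chr1:155859317-155859616, plus strand) holds none of these and has 6 matches to the ETS core CGGAAG, which 19.5% of windows contain, in alternating orientation, the first beginning at -142 and the last at -62. No marked match overlapped another. Of the other windows, that of STX1A held 7 GC boxes and those of VAMP2 4 or 5, SYT1 had 1, and the windows of SNAP23 and SV2A held none of the 4 motifs. The SV2A window starts from a site 10891 bases inside the gene as deposited and that of SNAP23 from a site 4401 bases inside. The site of SYT1 lies 781 bases inside and those of VAMP2 670 and 598 bases inside. The windows of these genes therefore do not cover the outermost start. A match is a description of letters and not of a bound site.

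REST was expressed in every library. It averaged 43.3 ± 2.4 CPM in ADC and 44.1 ± 2.3 CPM in PBS libraries and was not called (log2 fold change -0.03, SE 0.05, adjusted p = 0.79). None of the 8 genes of its repressor complex passed the test in either direction, beside 20.8% of all tested genes. With so few genes nothing is read from this count. Their log2 fold changes lay between -0.03 for REST and 0.38 for the corepressor RCOR2 (SE 0.19, adjusted p = 0.17).

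Across the 10 genes, levels per exon length differed widely. In TPM, which scales counts by exon length and library, STX1A was highest, with 24.7 ± 2.4 in ADC and 21.9 ± 2.0 in PBS libraries (SD, n = 5 each). VAMP2 (20.1 ± 1.4 in ADC, 16.2 ± 1.4 in PBS) and SYT11 (20.0 ± 1.2 in ADC, 16.02 ± 1.42 in PBS) came next and could not be separated in either group. SV2A and SNAP23 changed places, with SV2A at 13.7 ± 1.6 TPM and SNAP23 at 13.5 ± 1.2 in overlapping ranges in ADC libraries, and 9.59 ± 0.81 and 13.2 ± 0.95 TPM in ranges that did not meet in PBS libraries. SNAP25 (2.32 ± 0.40 in ADC, 1.27 ± 0.15 in PBS) and SYT1 (1.84 ± 0.32 in ADC, 1.09 ± 0.51 in PBS) formed a lower tier with overlapping ranges. CPLX1, SYP and SYN1 stayed under 1.1 TPM in all libraries. SYT11 stood apart from the next gene below it in both groups, while STX1A and VAMP2 were apart in PBS and overlapped in ADC libraries.

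**Figure D1:**
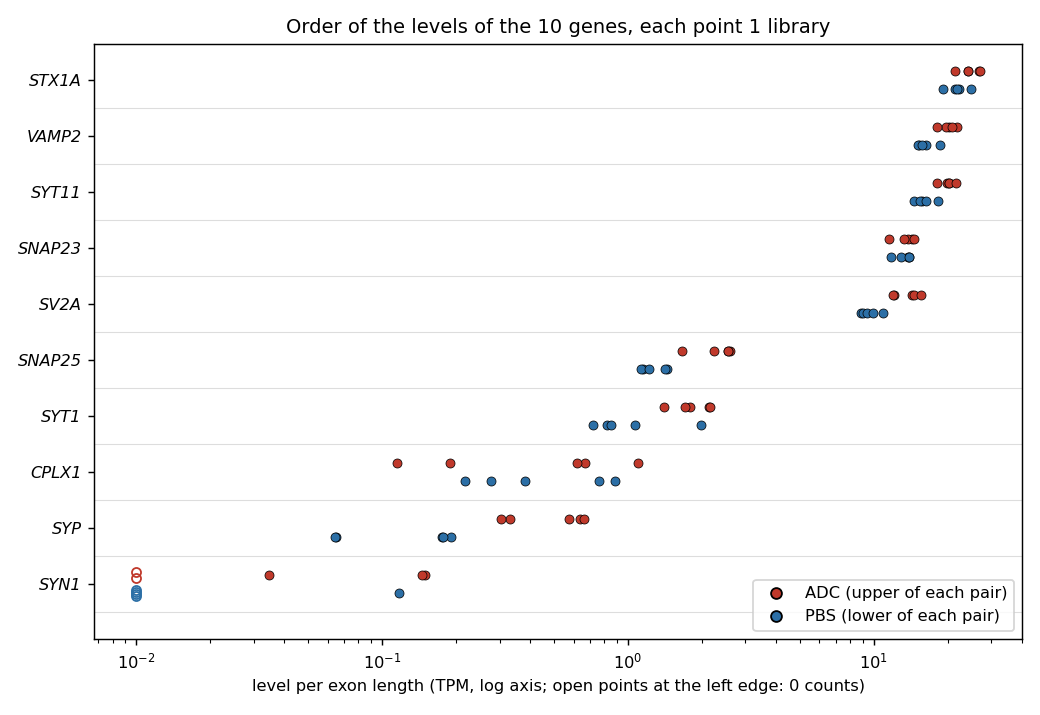
Level per exon length of the 10 genes in TPM on a log axis, ordered by their PBS mean, with each point a library (ADC above PBS in each pair, open points 0 counts). STX1A, VAMP2, SYT11, SNAP23 and SV2A lie between 8.86 and 27.1 TPM, SNAP25 and SYT1 between 0.721 and 2.60 TPM, and SYN1 is at 0 in 6 libraries.

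Of the 10 genes, 9 were tested and 6 of these lay past the threshold of the all-gene fit, all higher after ADC (SYP, SNAP25, SYT1, SV2A, SYT11 and VAMP2). The background was 10.8% of all tested genes higher and 10.04% lower. Since the list was made from this contrast, nothing is read from the count. SYP passed the filter on low counts through ADC libraries alone (5 of 5, against 0 of 5 PBS libraries), so a difference was built into its passing. The groups did not overlap for 4 genes (SYP, SNAP25, SV2A and SYT11), where ADC lay above PBS for 7.29% of all tested genes, below it for 6.95%, and apart in either direction for 14.2%. The median log2 fold change was 0.30 over the 9 members and -0.00 over all tested genes. In a bulk library, more RNA per cell and more cells that express a gene cannot be told apart.

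Among the proteins of the vesicle membrane, synaptophysin, a tetraspanning protein used in pathology as a neuroendocrine marker, was read at low counts. SYP had 15, 28, 14, 24 and 26 counts in ADC replicates 1 to 5, against 3, 3, 7, 7 and 8 in PBS replicates 1 to 5. In scaled units these were 0.433, 0.765, 0.409, 0.824 and 0.911 CPM after ADC and 0.0891, 0.0889, 0.238, 0.247 and 0.235 CPM after PBS. Every ADC library was above every PBS library, with ADC replicates 1 and 3 the lowest of their group and PBS replicates 1 and 2 the lowest of theirs. This gave a log2 fold change of 1.88 (SE 0.47), with only 107 counts in all ADC and 28 in all PBS libraries behind it. Its close relatives SYPL1 (136 ± 5 TPM in ADC, 138 ± 8 in PBS) and SYNGR2 (63.2 ± 4.3 in ADC, 69.6 ± 4.5 in PBS) are expressed in many tissues and made up nearly all of the family, of which SYP held 0.155% to 0.334% of the TPM in ADC and 0.0307% to 0.0917% in PBS libraries.

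SV2A, a transporter-like glycoprotein of the vesicle and the binding site of the antiepileptic levetiracetam, had 17.4, 14.9, 14.8, 17.3 and 19.9 CPM in ADC replicates 1 to 5. In PBS replicates 1 to 5 it had 11.2, 11.6, 11.7, 13.1 and 12.2 CPM. The lowest ADC library was above the highest PBS library. Its log2 fold change was 0.49 (SE 0.09), a 1.41-fold ratio, from 505 to 601 counts per ADC library and 345 to 414 per PBS library. The other SV2 genes, SV2B and SV2C, had 0 counts in all 10 libraries.

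Synapsin I, the phosphoprotein that tethers vesicles to one another and to actin, was not detected reliably. SYN1 had 0, 0, 5, 4 and 1 counts in ADC replicates 1 to 5, against 0, 4, 0, 0 and 0 in PBS replicates 1 to 5. It was not tested. A count of 0 allows up to 3 counts, for counting error only. Scaled by total count without the TMM factor, this was 0.0823 to 0.088 CPM in ADC replicates 1 and 2. In PBS replicates 1, 3, 4 and 5, the others at 0, it was 0.0877 to 0.106 CPM. The limit would be higher if both mates of a pair were counted. The gene TIMP1 lies inside the span of SYN1 on the other strand without sharing an exonic base, and was read at 1581 to 2210 counts per ADC and 1472 to 2142 per PBS library. SYN2 had at most 4 counts and SYN3 at most 7 in any library.

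**Figure D2:**
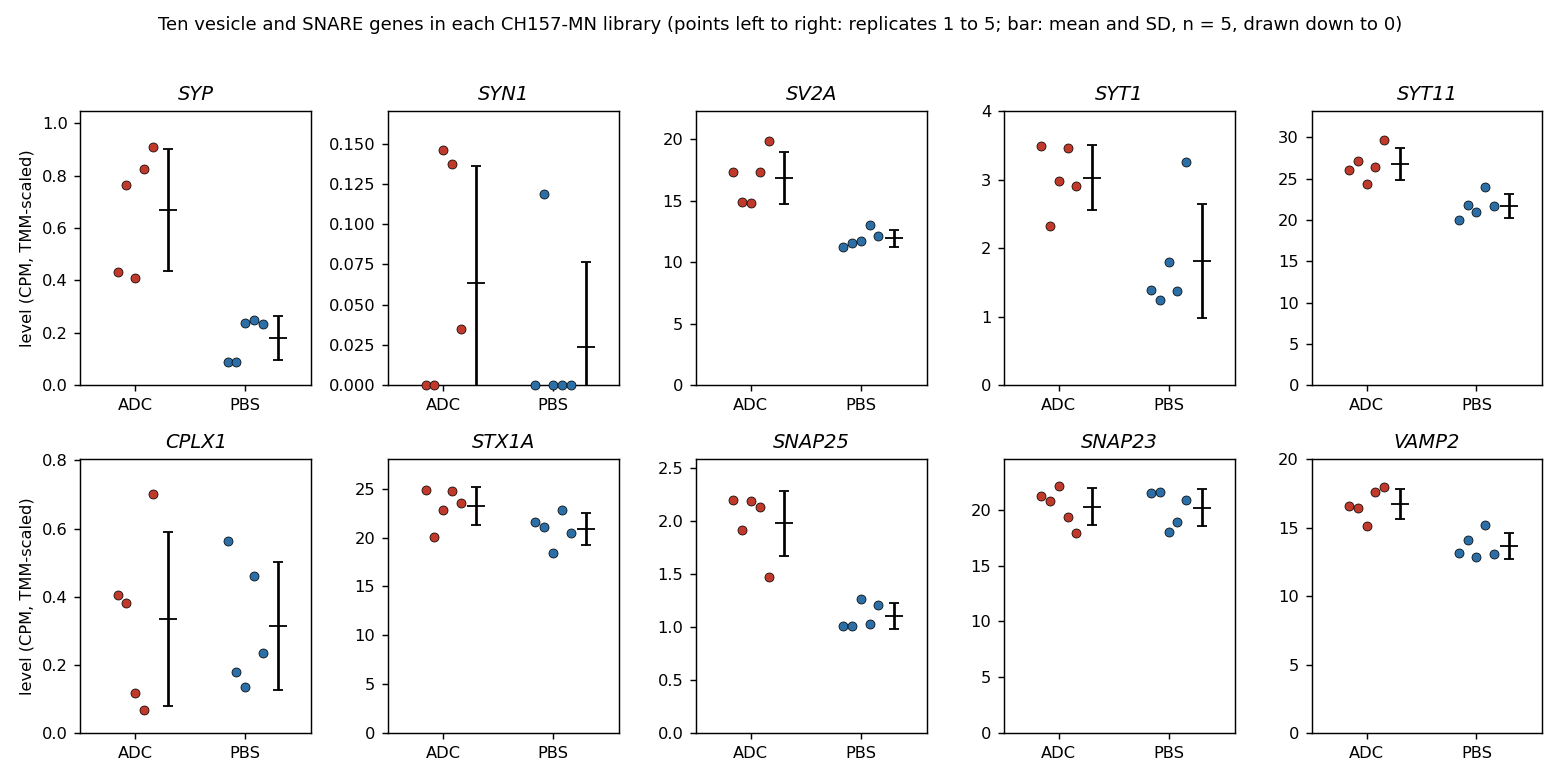
TMM-scaled CPM of each of the 10 genes in every library, ADC left of PBS, with the mean and SD (n = 5) beside the points. SYP, SV2A, SYT11 and SNAP25 do not overlap between the groups, SYT1 has a PBS library at 3.27 CPM among the ADC values, and CPLX1 and SNAP23 overlap throughout.

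Of the calcium sensors and clamps, SYT1 had 3.50, 2.32, 2.98, 3.47 and 2.91 CPM in ADC replicates 1 to 5 and 1.40, 1.24, 1.80, 1.38 and 3.27 CPM in PBS replicates 1 to 5. PBS replicate 5 lay within the ADC range, while the other 4 PBS libraries lay below every ADC library. The log2 fold change was 0.73 (SE 0.23) with all libraries and 1.06 without PBS replicate 5. SYT1 was no longer past the threshold of the all-gene fit without ADC replicate 1 or 4 or without PBS replicate 1, 2 or 4, with log2 fold changes of 0.62 to 0.69. Its counts were 83 to 121 per ADC library and 39 to 111 per PBS library.

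SYT11, a synaptotagmin that does not bind calcium and is linked to vesicle retrieval, was the main synaptotagmin mRNA of these cells. It held 78.4% to 83.2% of the TPM of 17 synaptotagmin genes in ADC and 78.1% to 84.4% in PBS libraries. Its levels were 26.0, 27.2, 24.4, 26.4 and 29.7 CPM in ADC replicates 1 to 5, against 20.0, 21.8, 20.97, 24.0 and 21.7 CPM in PBS replicates 1 to 5. The groups were separated by a narrow gap, between 24.4 CPM in ADC replicate 3 and 24.0 CPM in PBS replicate 4. The log2 fold change was 0.30 (SE 0.07), or 1.23-fold.

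Complexin 1 was close to the detection limit and varied more within groups than between them. CPLX1 had 14, 14, 4, 2 and 20 counts in ADC replicates 1 to 5, against 19, 6, 4, 13 and 8 in PBS replicates 1 to 5. The log2 fold change was 0.08 (SE 0.55), and it passed the filter on low counts through 3 ADC and 2 PBS libraries. CPLX2, CPLX3 and CPLX4 had 0 counts in all 10 libraries.

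Among the SNAREs of the plasma membrane, STX1A had 24.9, 20.1, 22.8, 24.8 and 23.6 CPM in ADC replicates 1 to 5. In PBS replicates 1 to 5 it had 21.6, 21.1, 18.4, 22.8 and 20.4 CPM. The groups overlapped, with a log2 fold change of 0.15 (SE 0.07). Of the STX1A exonic bases, 17.9% are also exonic in BUD23 on the other strand, a gene with 2954 to 3964 counts per ADC and 3177 to 4051 counts per PBS library, and the share of STX1A counts from that stretch was not tested. BUD23 averaged 107 ± 4 CPM in ADC and 115 ± 4 CPM in PBS libraries. Syntaxin 1A was the third of 7 plasma-membrane syntaxins, with 15.2% to 18.0% of their TPM in ADC and 13.6% to 16.4% in PBS libraries, behind STX3 and STX2 and close to STX4 (24.1 ± 1.6 TPM in ADC, 21.4 ± 1.6 TPM in PBS).

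The paralogs SNAP25 and SNAP23 differed in level and in their ratio between groups. SNAP25, the neuronal form, had 76, 70, 75, 62 and 42 counts in ADC replicates 1 to 5, against 34, 34, 37, 29 and 41 in PBS replicates 1 to 5. In CPM it was at 2.20, 1.91, 2.19, 2.13 and 1.47 after ADC and 1.01, 1.01, 1.26, 1.02 and 1.21 after PBS. All ADC libraries were above all PBS libraries, and ADC replicate 5 was the closest to them. SNAP25 had a log2 fold change of 0.85 (SE 0.24), or 1.80-fold. SNAP23 had 21.3, 20.8, 22.2, 19.3 and 17.9 CPM in ADC replicates 1 to 5, against 21.5, 21.6, 18.0, 18.9 and 20.9 CPM in PBS replicates 1 to 5. The values were interleaved, and the log2 fold change was 0.01 (SE 0.08). No word of 50 bases was common to SNAP25 and SNAP23 transcripts, or to any other pair of the 10 genes. SNAP23 shares 27.4% of its exonic bases with genes on the other strand, mainly with AC018362.1, which had 0 counts in every ADC library and at most 6 in a PBS library. LRRC57 covers 3.75% of them and averaged 11.6 ± 0.8 CPM in ADC and 12.1 ± 0.6 CPM in PBS libraries. SNAP25 held 2.34% to 3.58% of the TPM of the 4 SNAP genes in ADC and 1.52% to 2.07% in PBS libraries, and SNAP47 and SNAP29 were above SNAP23 in both groups.

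VAMP2, the SNARE of the vesicle side, had 16.6, 16.5, 15.1, 17.6 and 18.0 CPM in ADC replicates 1 to 5, against 13.1, 14.1, 12.9, 15.2 and 13.1 CPM in PBS replicates 1 to 5. The groups overlapped by ADC replicate 3 and PBS replicate 4 alone. Its log2 fold change was 0.29 (SE 0.08), or 1.22-fold. VAMP2 shares 13.2% of its exonic bases with AC129492.3 on its own strand, which had 0 counts in every library. It held 4.43% to 5.32% of the TPM of 7 VAMP genes in ADC and 4.32% to 4.70% in PBS libraries. VAMP3, the widely expressed relative that recycles through endosomes, was at 165 ± 8 TPM in ADC and 154 ± 6 TPM in PBS libraries.

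**Figure D3:**
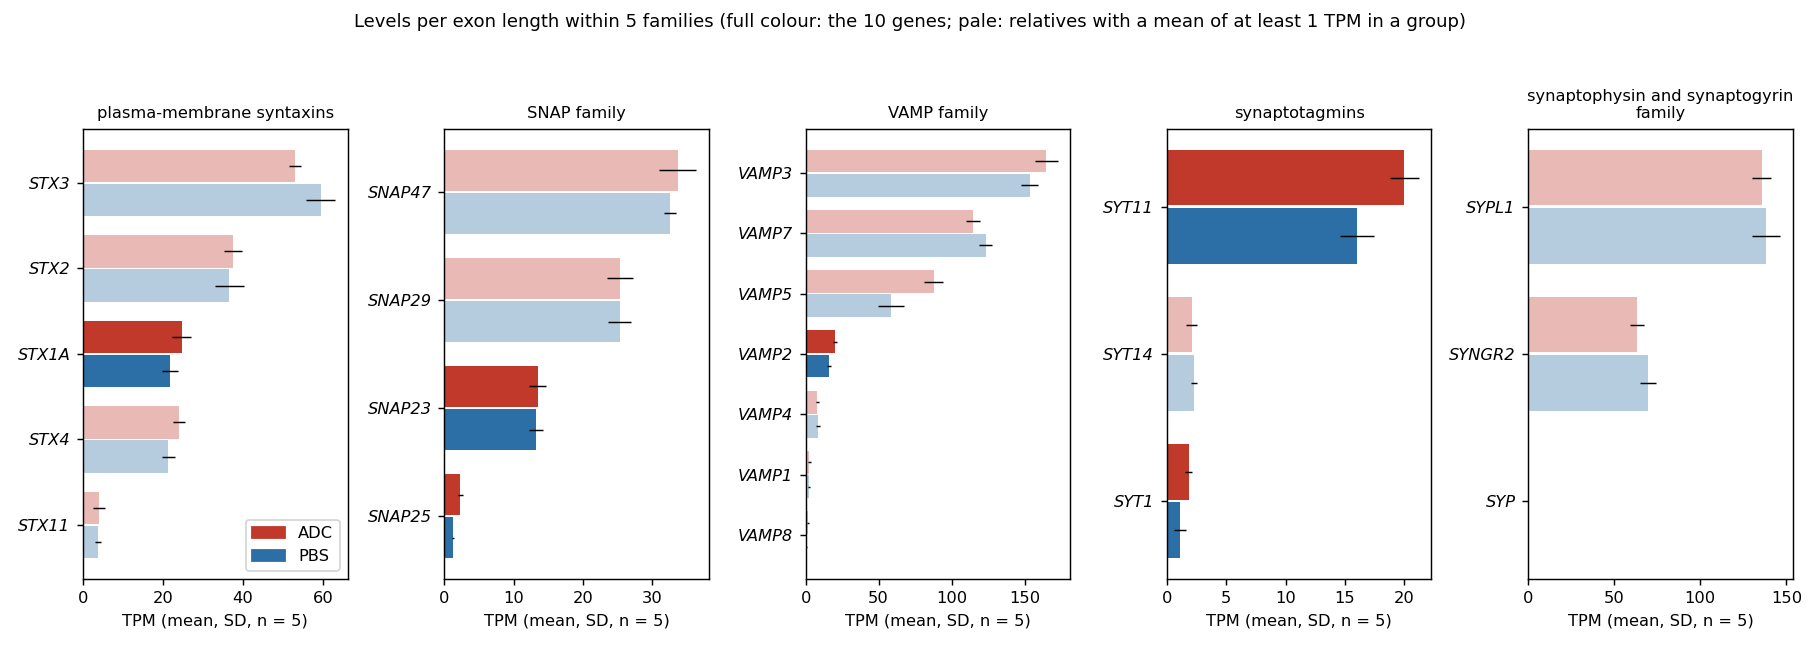
Mean TPM with SD (n = 5) of 5 gene families, ADC bars above PBS bars, with the genes described here in full colour and relatives of at least 1 TPM in pale colour. SYT11 leads its family, STX1A is the third syntaxin, VAMP2 is the fourth VAMP gene, and SYP is too low to be seen beside SYPL1.

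The wider machinery was followed in 4 lists of 90 further genes, of which 45 were tested. Of these 7 were called higher, SYT12 included, which passed the filter on low counts through ADC libraries alone, 5 fell and 33 were not called, and the median log2 fold change was 0.06. The shares called over all genes were 10.8% higher and 10.04% lower. Without ADC replicate 2 the number that fell was 2 instead of 5 (VAMP7, SYNGR2 and STXBP5 left it).

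Of 13 tested genes of the plasma-membrane syntaxin, SNAP and VAMP families outside the 10 genes, VAMP5 rose and STX3 and VAMP7 fell. Over all tested genes 10.8% were called higher and 10.04% lower. VAMP5, a VAMP gene known from muscle, was at 18.4 ± 1.6 CPM in ADC and 12.4 ± 1.7 CPM in PBS libraries (log2 fold change 0.57, SE 0.09, adjusted p = 2.4e-05). STX3, a syntaxin of apical and specialised membranes, was at 88.8 ± 2.4 CPM in ADC and 101 ± 6 CPM in PBS libraries (-0.19, SE 0.04, adjusted p = 0.0015). VAMP7, which acts in fusion of late endosomes and lysosomes, fell by 0.13 (SE 0.04, adjusted p = 0.033), a call lost with library size alone (adjusted p = 0.083) and without any of 7 single libraries (ADC replicates 1, 2, 4 and 5 and PBS replicates 2, 3 and 4, adjusted p of 0.053 to 0.090).

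Only 2 of 20 further calcium sensors and clamps had enough counts to be tested. SYT12, a synaptotagmin of brain that lacks calcium binding, had 10 to 34 counts per ADC library and 0 to 6 per PBS library, with a log2 fold change of 3.14 (SE 0.60). It passed the filter on low counts through ADC libraries alone (5 of 5, against 0 of 5 PBS libraries), so a difference was built into its being tested and no p is given. SYT14 was not called (-0.16, SE 0.13, adjusted p = 0.45). Of 19 further vesicle membrane proteins 3 were tested, of which SYNGR2 fell (-0.16, SE 0.05, adjusted p = 0.019), beside 10.04% lower over all tested genes. The SYNGR2 call was lost without ADC replicate 2, ADC replicate 3 or PBS replicate 2 (adjusted p of 0.061 to 0.076). Vesicular transmitter transporters had at most 15 counts in any library, the value of SLC17A7.

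Of 27 tested genes of docking, priming and SNARE recycling, 5 rose and 2 fell, beside 10.8% higher and 10.04% lower over all tested genes. The priming factor UNC13A was at 4.23 ± 0.60 CPM in ADC and 1.93 ± 0.43 CPM in PBS libraries (log2 fold change 1.14, SE 0.18, adjusted p = 2.4e-05). The secretory GTPase gene RAB27B rose by 0.54 (SE 0.14, adjusted p = 0.0064), and RAB3D (0.32, SE 0.10) and STXBP3 (0.17, SE 0.06) also rose. RAB3D lost its call without ADC replicate 1 or 2 or PBS replicate 2 or 5 (adjusted p of 0.051 to 0.077), and STXBP3 lost it without ADC replicate 1 or PBS replicate 1 (adjusted p of 0.075 and 0.059). RAB3B, the most abundant RAB3 gene by count, fell by 0.20 (SE 0.04, adjusted p = 0.00058), to 130 ± 8 CPM in ADC libraries against 150 ± 7 CPM in PBS libraries. STXBP5, which encodes the fusion inhibitor tomosyn, fell by 0.22 (SE 0.07, adjusted p = 0.022), but not without ADC replicate 2, ADC replicate 5 or PBS replicate 5 (adjusted p of 0.058 to 0.082). NSF, the ATPase that takes spent SNARE bundles apart, was not called (-0.03, SE 0.05, adjusted p = 0.74).

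**Figure D4:**
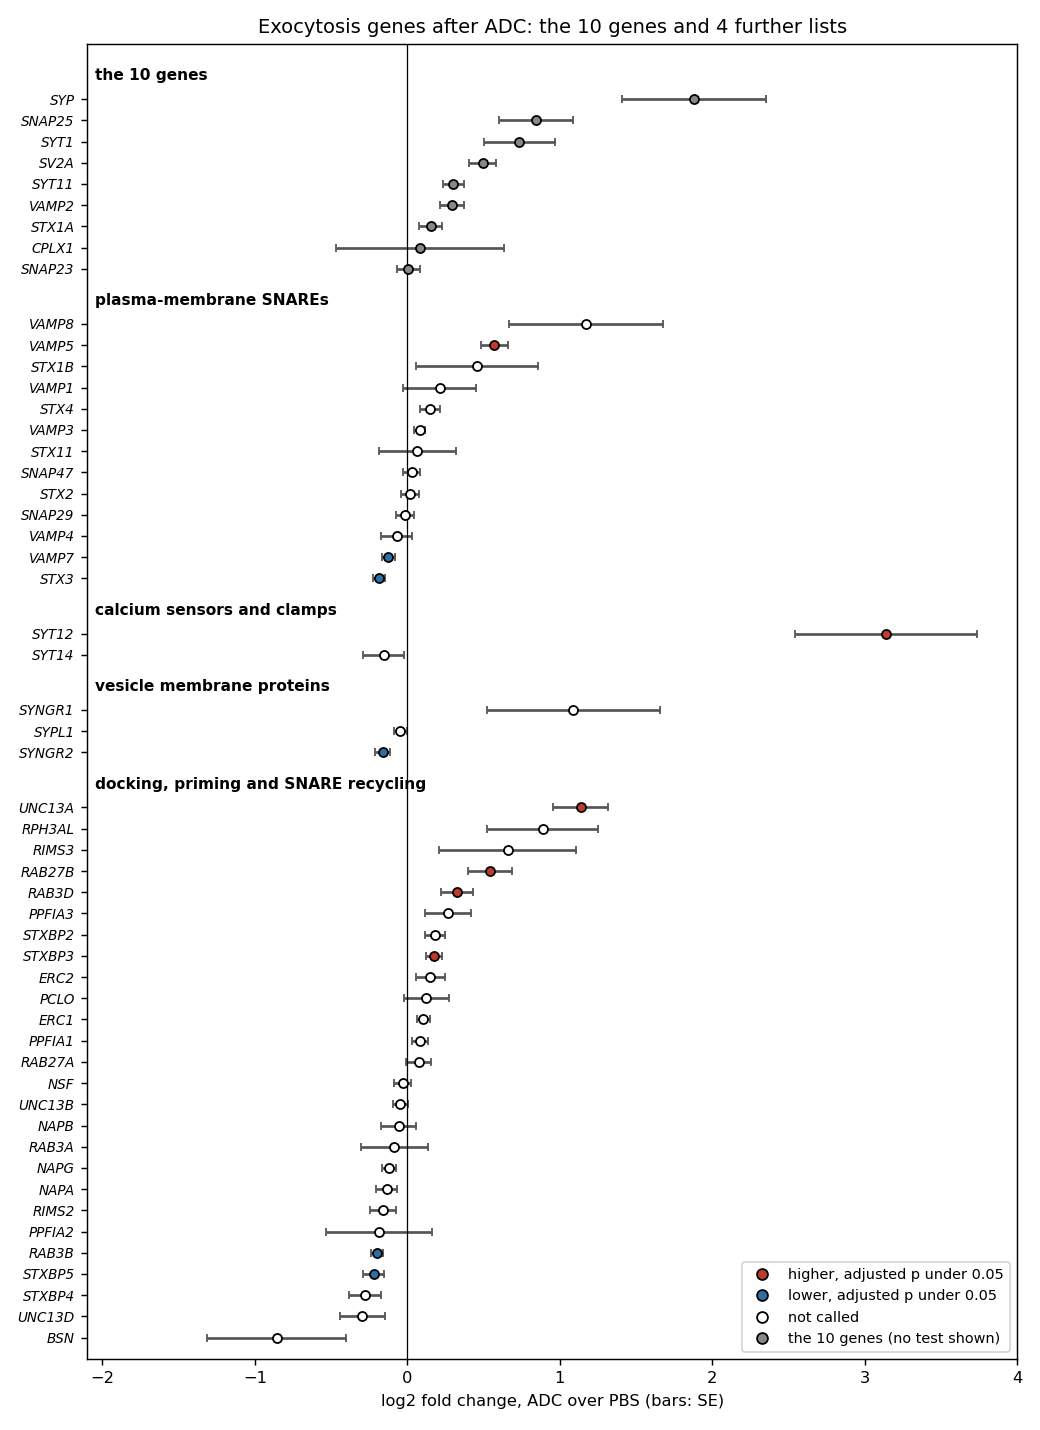
Log2 fold change of ADC over PBS with its SE for the 9 tested members (grey, no test shown) and the tested genes of 4 further lists, all but 1 of the 45 (red called higher, blue called lower, white not called). SYP lies at 1.88 and SYT12 at 3.14, while 33 of the 45 list genes are not called. SYT12 is drawn red, but it passed the filter on low counts through ADC libraries alone, so its colour is not read as a test result.

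The SNAREs of the ER, Golgi and endosomes, which serve traffic in every cell, were tested in 21 of 21 cases, and 1 was called higher and 2 lower, beside 10.8% and 10.04% of all tested genes. STX10 of the trans-Golgi network rose (log2 fold change 0.19, SE 0.05, adjusted p = 0.0048), and YKT6 (-0.13, SE 0.04, adjusted p = 0.0071) and GOSR2 (-0.16, SE 0.05, adjusted p = 0.023) fell. The call of GOSR2 was lost with library size alone, without ADC replicate 5 and without PBS replicate 1 (adjusted p of 0.055 to 0.099). The median of this list was -0.01, and 18 members were not called.

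Of 7 tested neuronal and neuroendocrine markers, 3 were called higher and 4 were not called, beside 10.8% higher and 10.04% lower over all tested genes. The granule protein gene VGF rose by 1.03 (SE 0.23, adjusted p = 0.0013), and the enolase ENO2 rose by 0.29 (SE 0.05, adjusted p = 2.5e-05). SCG2, another granule protein gene, had 22 to 45 counts per ADC library and 1 to 18 per PBS library, with a log2 fold change of 2.13 (SE 0.49). It met the filter on low counts in 5 ADC libraries and 1 PBS library, so its passing rested on the ADC libraries and no p is given. UCHL1, the most abundant by count, was not called (0.05, SE 0.04, adjusted p = 0.36), nor was TUBB3 (0.47, SE 0.48, adjusted p = 0.55). Summed over the 25 markers, levels were 420 to 444 CPM in ADC and 380 to 432 CPM in PBS libraries. Nearly all of this came from UCHL1 (348.8 ± 9.8 CPM in ADC, 337.2 ± 18.4 CPM in PBS) and ENO2 (72.1 ± 1.9 CPM in ADC, 59.1 ± 3.6 CPM in PBS). The 11 leukocyte markers summed to 0.300 to 0.701 CPM in ADC and 0.00 to 0.559 CPM in PBS libraries, with 5 of 11 at 0 in every library. The 7 glial markers summed to 50.6 to 55.2 CPM in ADC and 49.5 to 57.7 CPM in PBS libraries, nearly all from MBP, while AQP4, OLIG2, SOX10 and S100B had 0 counts. The part of these other markers in the values of the 10 genes was not tested.

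On hg38, SYP (ENSG00000102003) lies on chromosome X from 49187804 to 49200259 and SYN1 (ENSG00000008056) on the same chromosome from 47571898 to 47619943, both on the minus strand. SYT11 (ENSG00000132718, plus strand) lies on chromosome 1 from 155859509 to 155885199 and SV2A (ENSG00000159164, minus strand) on the same chromosome from 149903318 to 149917882. SYT1 (ENSG00000067715, plus strand) lies on chromosome 12 from 78863993 to 79452008 and is the longest, at 588016 bases. CPLX1 (ENSG00000168993, minus strand) lies on chromosome 4 from 784957 to 826198, and STX1A (ENSG00000106089, minus strand) on chromosome 7 from 73699206 to 73719672. SNAP25 (ENSG00000132639, plus strand) lies on chromosome 20 from 10218830 to 10307418, SNAP23 (ENSG00000092531, plus strand) on chromosome 15 from 42491233 to 42545356, and VAMP2 (ENSG00000220205, minus strand) on chromosome 17 from 8159149 to 8163546. The deposited values are per gene and single out no exon or isoform.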

How the data were processed

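The deposited table holds raw counts per gene for 10 poly(A)-selected libraries, with gene_length as another column. The authors' tools are named in the submitters' processing notes as HISAT2, HISAT and TopHat2, without a role, with the build hg38. The sources used here do not name the counting tool or its strand setting. Identifiers, positions and exon lengths of all 58735 deposited genes matched GENCODE release 29. Small counts (2 to 21) were even in 65.4% to 67.3% of cases, so both mates of a pair may have been counted, and intervals and limits cover counting error only.

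Counts were filtered with filterByExpr (minimum count 10, minimum total 15), scaled with TMM factors and tested two-sided by quasi-likelihood in edgeR 4.0.16 under R 4.3.3, with Benjamini-Hochberg adjustment over 14504 genes and a threshold of 0.05. SE was the absolute log2 fold change over the square root of F. TPM was computed from counts and the deposited exon length. Members and lists were chosen with earlier results of these data known. Named genes were the 10 members, REST, SSTR2, genes with exons overlapping a member, and from each list the 3 called genes with the smallest adjusted p per direction, or all where 5 or fewer were called. Other genes (family relatives, TIMP1, RCOR2, SYT14, NSF, UCHL1, TUBB3, SLC17A7 and cell type markers) were named after their values were seen. The values of 1 called gene of the docking list, which stays in the counts, are not reported here. The fit was tested on simulated data. Alternatives were DESeq2 1.42.0, limma-voom (limma 3.58.1), library size alone, other filters, halved counts, a replicate block and leaving out each library.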

Additional observations from a re-analysis of the deposited data

Results flagged for a closer look

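Among 60 groups of 5 libraries (30 named genes in 2 groups), 5 held a library far from the other 4 by Dixon's criterion. Chance gives about 1 in 20 for normally distributed values. That rate does not hold for small counts such as those of SYN1 and SSTR2. SYT1 was high in PBS replicate 5, at 3.27 CPM. SYN1 was high in PBS replicate 2, at 0.118 CPM, which is its only PBS library with a count, so its flag was built in. SSTR2 was high in PBS replicate 3, at 0.749 CPM. ENO2 was high in ADC replicate 1, at 75.4 CPM, and VGF was low in the same library, at 1.79 CPM.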

How the results depend on the processing

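The members were chosen on this contrast in these same libraries, so their counts and ratios under other settings are a description, from which nothing is read. The 6 members past the threshold stayed 6 with DESeq2, limma-voom, library size alone, no filter on low counts and the replicate block. They were 5 with a mean of at least 1 CPM and with halved counts, both of which removed SYP from the genes tested. Without single libraries they were 5 to 6, SYT1 being the member lost. Over all genes 3018 were called, against 3362 with DESeq2, 3152 with the replicate number as a block and 2491 to 2980 without single libraries. The 4 further exocytosis lists had 7 higher and 5 lower calls, 8 and 6 with the replicate block, and 5 to 9 and 2 to 5 without single libraries, the 2 being without ADC replicate 2. Same-numbered libraries showed little shared deviation (correlations of -0.00717 to 0.0404), and 1 of 5 matched its own number best. These values gave no sign of pairing by number, but they cannot tell a small shared effect from none. The log2 fold change of CPLX1 was -0.11 with limma-voom and -0.34 to 0.41 without single libraries, that of SNAP23 was -0.030 to 0.049 and that of REST -0.045 to 0.007 without single libraries, and none of the 3 was called. SYP kept a log2 fold change of 1.71 to 2.02 and SNAP25 of 0.81 to 0.94 in every alternative that tested them. Counts under 30 in every library limit SYP, CPLX1 and SYN1.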
